A study of Mus musculus with 21 samples.

Results

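Normal myeloid differentiation in the bone marrow (BM) was examined by setting CD11b+ myeloid cells against the stem and progenitor cells from which they descend, in control mice alone. The comparison rests on 8 of the 21 libraries of the series, chosen by their labels: 4 of BM CD11b+ cells and 4 of BM LSK cells, with the control genotype as a covariate. Each cell type has 2 libraries labelled MxCre and 2 labelled Ptpn11D61Y/+. MxCre mice carry a Cre recombinase that interferon switches on, and Ptpn11D61Y/+ mice carry a mutant Ptpn11 allele kept silent by a Neo-Stop cassette, without Cre. Per the study's methods all control mice had received poly I:C, an RNA mimic that induces interferon, so no group is untreated. LSK cells (lineage negative, Sca1+, cKit+) were obtained by depletion of lineage-positive cells and flow sorting, whereas CD11b+ cells were isolated on magnetic columns, so cell type and isolation method cannot be told apart. The labels give no age and do not say whether libraries that share a number come from 1 animal, so the p-values measure only the spread between these libraries, which may in part be technical.

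LSK cells hold the hematopoietic stem cells and the earliest multipotent progenitors. CD11b is the integrin alpha chain (gene Itgam) shared by neutrophils and monocytes, and bulk CD11b+ marrow is a mixture of both, from dividing precursors to mature cells. As a neutrophil precursor matures it fills its granules in waves: the primary granules, with myeloperoxidase and serine proteases, are made in promyelocytes, the secondary and tertiary granules, with lactoferrin and gelatinase, in myelocytes and metamyelocytes, and the surface receptors of the mature cell come last. The transcription factor PU.1 (gene Spi1) acts early in this sequence, and the C/EBP factors, C/EBPε above all, act on the later granule genes. Ptpn11 encodes SHP2, the phosphatase that passes growth factor signals on to RAS and is mutated in juvenile myelomonocytic leukemia, and the BCL-2 family decides over mitochondrial apoptosis, the readout of the study.

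Promoters of 6 granule genes are shown, chosen from the primary and the secondary granules, the waves described below. They are the 250 bases before the RefSeq transcription start (GRCm38.p6), written 5′ to 3′ on the strand of the gene. Capitals mark matches, searched on both strands, to GAGGAAGT, a core PU.1 motif, in the primary granule genes Mpo (chr11:87793534-87793783, plus strand), Elane (chr10:79886062-79886311, plus) and Prtn3 (chr10:79879417-79879666, plus), and to TTGCNNAA, a core C/EBP motif, in the secondary granule genes Ltf (chr9:111019042-111019291, plus), Ngp (chr9:110419558-110419807, plus) and Camp (chr9:109849457-109849706, minus). The search found none of these letters in the Camp window.

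Mpo: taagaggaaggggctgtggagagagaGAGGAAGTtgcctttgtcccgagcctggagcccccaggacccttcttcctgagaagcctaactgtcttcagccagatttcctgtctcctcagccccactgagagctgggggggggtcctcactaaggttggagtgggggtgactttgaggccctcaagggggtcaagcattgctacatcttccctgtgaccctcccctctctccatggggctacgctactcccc
Elane: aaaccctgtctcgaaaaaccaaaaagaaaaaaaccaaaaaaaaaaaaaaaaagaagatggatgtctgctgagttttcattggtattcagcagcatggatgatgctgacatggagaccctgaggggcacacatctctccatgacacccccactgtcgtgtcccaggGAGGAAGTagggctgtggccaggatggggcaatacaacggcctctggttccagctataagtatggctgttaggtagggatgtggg
Prtn3: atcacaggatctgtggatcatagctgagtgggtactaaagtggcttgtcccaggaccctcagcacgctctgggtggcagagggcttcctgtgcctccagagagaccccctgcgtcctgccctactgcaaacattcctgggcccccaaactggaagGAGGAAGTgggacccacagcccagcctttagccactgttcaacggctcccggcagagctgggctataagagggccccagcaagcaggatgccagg
Ltf: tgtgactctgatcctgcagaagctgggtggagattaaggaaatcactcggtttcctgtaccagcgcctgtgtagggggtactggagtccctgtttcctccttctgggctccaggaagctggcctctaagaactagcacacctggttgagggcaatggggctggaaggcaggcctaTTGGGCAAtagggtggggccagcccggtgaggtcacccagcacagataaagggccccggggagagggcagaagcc
Ngp: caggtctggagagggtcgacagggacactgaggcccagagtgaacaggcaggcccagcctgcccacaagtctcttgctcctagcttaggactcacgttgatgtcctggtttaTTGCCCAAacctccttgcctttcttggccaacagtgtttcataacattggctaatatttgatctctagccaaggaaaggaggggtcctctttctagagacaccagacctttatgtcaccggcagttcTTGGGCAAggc
Camp: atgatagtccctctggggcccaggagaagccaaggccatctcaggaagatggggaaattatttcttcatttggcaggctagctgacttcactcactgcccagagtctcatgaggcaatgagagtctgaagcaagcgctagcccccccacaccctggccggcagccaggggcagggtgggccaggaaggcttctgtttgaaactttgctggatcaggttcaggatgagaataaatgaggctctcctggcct

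GAGGAAGT was found in 4 of the 10 promoters of primary granule genes (Ctsc, Elane, Mpo and Prtn3) and in 2.44% of all 32851 promoters of the same length. TTGCNNAA was found in 5 of the 16 promoters of secondary and tertiary granule genes (Adam8, Lcn2, Ltf, Mmp8 and Ngp) and in 9.56% of all promoters. Of the converse pairs, 1 of the 10 primary granule promoters held TTGCNNAA and 3 of the 16 secondary and tertiary granule promoters held GAGGAAGT. Among the other lists searched, TTGCNNAA was in 16.1% of 31 stem cell identity, 15.4% of 26 mature neutrophil and 5.26% of 19 monocyte promoters, and GAGGAAGT in 0.0%, 15.4% and 21.1% of them, so neither was limited to the granule genes. A match describes the letters of the window and is not evidence that a factor binds there.

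The files hold raw counts per gene. Totals ran from 71175951 to 104509425 counts in LSK libraries and from 38436746 to 69421661 in CD11b+ libraries. Levels are given as log2 CPM, counts relative to the library's total after scaling by trimmed mean of M-values (TMM), on which a count of 0 lies at -5.34. In the order MxCre replicate 1, MxCre replicate 2, Ptpn11D61Y/+ replicate 1 and Ptpn11D61Y/+ replicate 2, which is kept throughout, 14885, 17493, 21304 and 21425 genes were detected in CD11b+ cells and 23746, 22912, 24220 and 23649 in LSK cells. All LSK libraries detected more genes than all CD11b+ libraries (23632 ± 540.81 against 18777 ± 3172.5, mean ± SD, n = 4 each; two-sided exact permutation p = 0.0286, the smallest that 4 against 4 libraries allow). Thinned to the 38436746 counts of the shallowest library, CD11b+ libraries held 14885, 17317, 20084 and 20346 genes and LSK libraries 22223, 21714, 22117 and 22098. The 10 most abundant genes took 21.8 ± 4.62% of CD11b+ counts and 9.21 ± 2.99% of LSK counts (exact permutation p = 0.0286).

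The sort markers followed the labels for Itgam and Kit, and Ly6a did not pass the test. Itgam stood at 7.98, 8.41, 9.73 and 10.05 log2 CPM in CD11b+ libraries and at 6.88, 6.71, 5.07 and 5.03 in LSK libraries. The groups did not overlap, and the gap was wider in Ptpn11D61Y/+ than in MxCre libraries. Kit, the stem cell factor receptor, stood at 2.37, 4.71, 4.45 and 4.14 in CD11b+ libraries and at 8.80, 8.79, 8.97 and 9.11 in LSK libraries, with all LSK libraries far above. Ly6a, which encodes Sca1, read 6.03, 5.27, 5.34 and 5.13 in CD11b+ and 5.71, 5.45, 5.97 and 6.12 in LSK libraries. These levels overlapped, and the log2 fold change of -0.35 ± 0.27 (SE) gave an adjusted p of 0.299. The overlap came from CD11b+ MxCre replicate 1, without which Ly6a was called lower (-0.66, adjusted p = 0.006), as it was with library size alone (-1.37, adjusted p = 0.00239) and in Ptpn11D61Y/+ libraries only (-0.81, adjusted p = 0.00135), while MxCre libraries only gave 0.05 (adjusted p = 0.93). Here and below, adjusted p-values are those of the quasi-likelihood test of edgeR, with Benjamini-Hochberg correction over 16839 genes, and fold changes are CD11b+ relative to LSK.

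Transcripts typical of other cells were counted in both fractions, and 3 libraries stood apart. The 4 adult globin genes took 3.48%, 15.8%, 11.7% and 12.5% of CD11b+ counts. In LSK libraries they took 0.200%, 0.107%, 0.00585% and 0.00376%, so both MxCre LSK libraries held many times the globin share of both Ptpn11D61Y/+ LSK libraries. The same split was seen for 6 abundant neutrophil granule genes (S100a8, S100a9, Ngp, Camp, Ltf and Lcn2), at 0.415%, 0.346%, 0.0378% and 0.0257% of LSK counts against 6.21%, 10.2%, 10.7% and 8.69% of CD11b+ counts. Immunoglobulin genes, which B-lineage cells transcribe, took 5.93%, 3.31%, 8.70% and 11.7% of LSK counts and 2.19%, 0.873%, 1.27% and 1.64% of CD11b+ counts. In CD11b+ MxCre replicate 1 the count was 0 for 294 of 11221 genes whose median over the cell type reached 2 CPM, against 2, 0 and 0 in the other CD11b+ libraries. Counts of 4 or more genes of a list are given below without both MxCre LSK libraries or without CD11b+ MxCre replicate 1 where this moved them by more than 1.5 times.

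**Figure D1:**
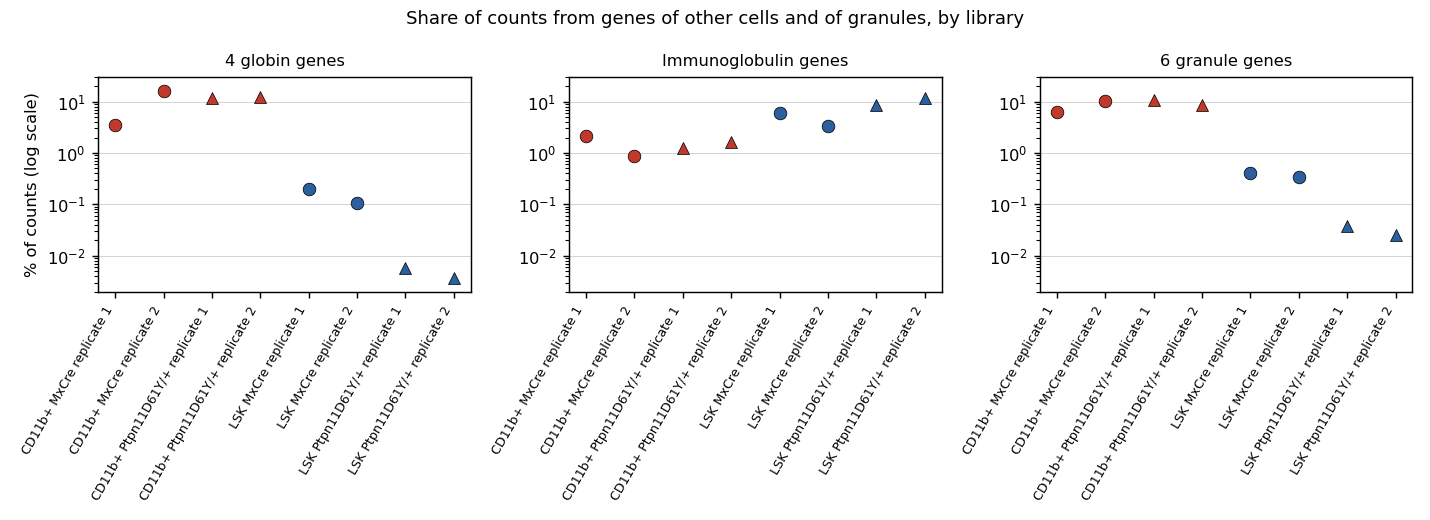
Share of each library's counts (%, log axis) taken by 4 globin genes, 6 neutrophil granule genes and immunoglobulin genes, with 1 point per library in 4 CD11b+ and 4 LSK control libraries of the marrow. Granule and globin shares are higher in all CD11b+ than in all LSK libraries, and within LSK both MxCre libraries lie above both Ptpn11D61Y/+ libraries.

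Over the whole transcriptome, 8829 of 16839 tested genes (52.4%) differed between the cell types, 4180 higher (24.8%) and 4649 lower (27.6%) in CD11b+ cells. These shares are the background for the counts of called genes in each list below. A further view without a model is that all 4 CD11b+ libraries lay above all 4 LSK libraries for 24.5% of the genes, and all LSK above all CD11b+ libraries for 32.9%. The median log2 fold change over all genes was -0.15. The split between higher and lower depended on scaling: of the called genes 47.3% were higher with TMM and 17.6% with library size alone, which moved the median of all genes to -1.17. Directions below are therefore relative to the bulk of genes under TMM. Without both MxCre LSK libraries, an alternative chosen after seeing the data, 3919 genes were called, of which 3757 were called in the same direction with all 8 libraries. Smaller counts given below for lists in that fit are to be read beside this drop from 8829 to 3919 genes over the whole transcriptome.

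The 10 largest rises, among abundant protein-coding genes that separated all libraries, were globin genes (Hba-a2, Hba-a1, Hbb-bs and Hbb-bt), neutrophil genes (Gm5483, Stfa2l1, Retnlg, Ly6g and Ltf) and Cd5l, a secreted macrophage protein, with log2 fold changes from 8.95 to 10.84. The globin pairs and the stefin genes Gm5483 and Stfa2l1 are near-identical copies among which the counting may have split reads. Per exon length the most abundant CD11b+ transcripts were S100a9, Hba-a1, Hbb-bs, Hba-a2, S100a8, Ngp, Hbb-bt, Camp, Igkc and Rplp1, with S100a9 at 87622 RPKM (counts scaled by exon length and library size). In LSK cells they were Igkc, Ighm, Igha, Eef1a1, Rplp1, mt-Co1, Igkv1-110, Fos, Igkv3-2 and Rps3a1, so 5 of the 10 were immunoglobulin genes.

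The 10 largest falls, at -11.07 to -6.74, included Slc22a3, Nwd1, Angpt1, Mdga1, Muc13, Shank3, Meis1, Gata2 and Afap1l1. Slc22a3, an organic cation transporter, had 0, 0, 4 and 3 counts in CD11b+ libraries and 9764, 9232, 12333 and 10720 in LSK libraries. Nwd1 had 0, 0, 16 and 10 counts against 13206, 10275, 17465 and 12501. In both genes the lowest LSK library lay far above the highest CD11b+ library. Angpt1, a ligand of the Tie2 receptor, was 354-fold lower in CD11b+ cells (log2 fold change -8.47 ± 0.38, adjusted p = 5.91e-05). In bulk samples, fewer cells of a type and less RNA per cell cannot be told apart.

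**Figure D2:**
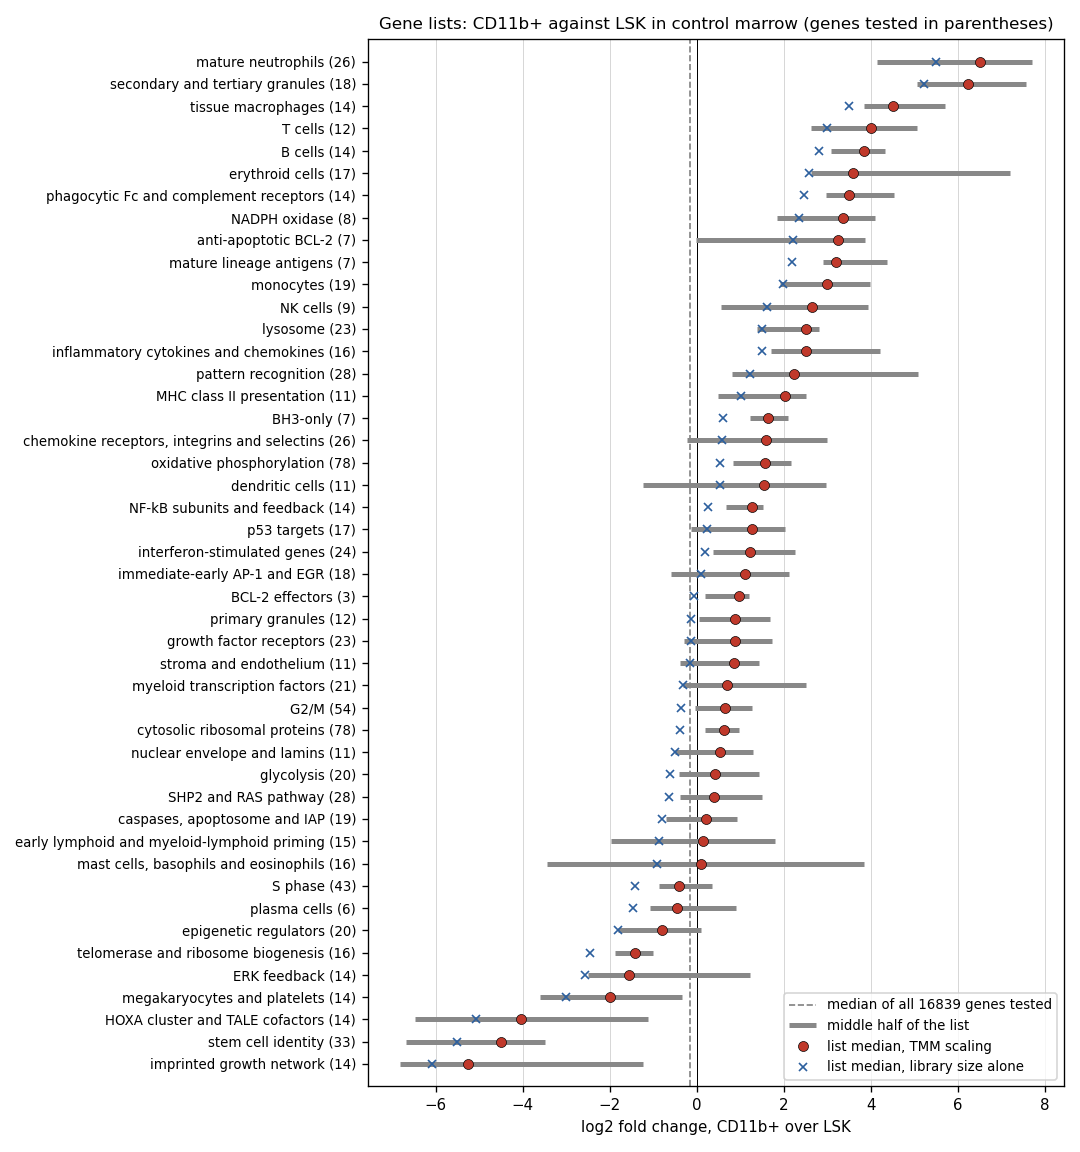
Median log2 fold change of CD11b+ relative to LSK cells for gene lists, with bars from the lower to the upper quartile of the tested members and a dashed line at the median of all 16839 genes. Lists of secondary granules and mature neutrophils lie farthest right and those of stem cell identity, HOXA genes and imprinted genes farthest left, and crosses mark the medians with scaling by library size alone, where 13 of them change sign.

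The granule waves differed in size. Of 18 secondary and tertiary granule genes 17 rose and 1 fell (median 6.25). Of 26 mature neutrophil genes 25 rose and none fell (median 6.52). Of 12 primary granule genes 5 rose and none fell (median 0.89), but 1 rose and 3 fell with library size alone (median -0.14). All 4 CD11b+ libraries lay above all 4 LSK libraries for 17 of the 18 secondary and tertiary granule genes, 25 of the 26 mature neutrophil genes and 4 of the 12 primary granule genes. Without both MxCre LSK libraries the counts of higher genes were 17, 22 and 1, and the medians 8.42, 7.36 and 0.42. Without CD11b+ MxCre replicate 1 they were 17, 25 and 7, with medians of 7.01, 6.57 and 1.04. Without CD11b+ MxCre replicate 2, 5 primary granule genes rose and 2 fell (median 0.13), and 3 rose without LSK MxCre replicate 1 or 2, CD11b+ Ptpn11D61Y/+ replicate 1 or LSK Ptpn11D61Y/+ replicate 2. The lists were not compared with each other by a test.

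Mpo, the myeloperoxidase of the primary granules, had overlapping levels in LSK and CD11b+ libraries. Its levels were 8.47, 10.92, 9.95 and 9.62 log2 CPM in CD11b+ and 10.25, 10.05, 10.66 and 10.62 in LSK cells. The groups overlapped (log2 fold change -0.42 ± 0.49, adjusted p = 0.499). Elane, neutrophil elastase, gave 6.75, 9.72, 9.52 and 9.13 against 8.38, 7.32, 8.84 and 8.94. Prtn3, proteinase 3, gave 7.94, 10.90, 9.45 and 8.93 against 8.35, 8.24, 8.84 and 8.81. Both overlapped and neither passed the test (0.70 ± 0.58, adjusted p = 0.338, and 1.09 ± 0.62, adjusted p = 0.172). Both were singled out with Mpo after their values were seen, as neighbouring protease genes. For all of the 3 genes CD11b+ MxCre replicate 1 was the lowest of the CD11b+ libraries. Among the 5 primary granule genes that rose was Ctsc, the protease that activates these enzymes, with all CD11b+ libraries (7.91, 6.06, 6.60 and 7.31) above all LSK libraries (5.44, 5.73, 5.43 and 5.32) and a log2 fold change of 1.64 ± 0.39 (adjusted p = 0.0106).

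The secondary granule genes, whose promoters are shown above, behaved otherwise. Ltf, lactoferrin, stood at 13.13, 14.68, 14.37 and 13.90 in CD11b+ libraries and at 8.94, 8.74, 1.93 and 0.75 in LSK libraries. The groups were far apart, and the LSK libraries fell into a high MxCre and a low Ptpn11D61Y/+ pair. Ngp, neutrophilic granule protein, showed the same arrangement at 13.02, 14.59, 15.08 and 14.76 against 9.51, 9.21, 5.15 and 4.36. Camp, the cathelicidin precursor without the C/EBP letters in its window, stood at 13.47, 14.49, 13.57 and 13.21 against 7.90, 7.47, 5.0 and 4.57. Their log2 fold changes were 8.97 ± 2.14 for Ltf, 7.38 ± 1.51 for Ngp and 7.48 ± 0.69 for Camp (adjusted p = 0.0108, 0.00581 and 0.000265). The large errors of Ltf and Ngp went with the split among LSK libraries. In a fit of the 4 groups the log2 fold change in Ptpn11D61Y/+ libraries was 12.71 for Ltf and 10.12 for Ngp. In MxCre libraries it was 5.26 and 4.64.

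Among mature neutrophil genes, S100a9, a subunit of calprotectin, read 15.41, 15.78, 15.53 and 15.13 in CD11b+ and 9.66, 9.42, 6.64 and 6.25 in LSK libraries (7.47 ± 0.79, adjusted p = 0.000439). S100a8, its partner, rose by 6.86 ± 0.61. All CD11b+ libraries lay above all LSK libraries for both. Ly6g, the antigen by which mouse neutrophils are gated, rose by 9.26 ± 2.02, and Cxcr2, the receptor that lets neutrophils leave the marrow, by 5.30 ± 0.43. Retnlg, a resistin-like protein of neutrophils, stood at 12.74, 12.30, 12.32 and 11.49 in CD11b+ libraries and at 5.70, 5.86, -1.07 and -0.77 in LSK libraries, again with a split between the genotypes of LSK cells. Whether RNA of granulocytes among the sorted cells contributed to the higher levels in MxCre LSK libraries was not tested.

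**Figure D3:**
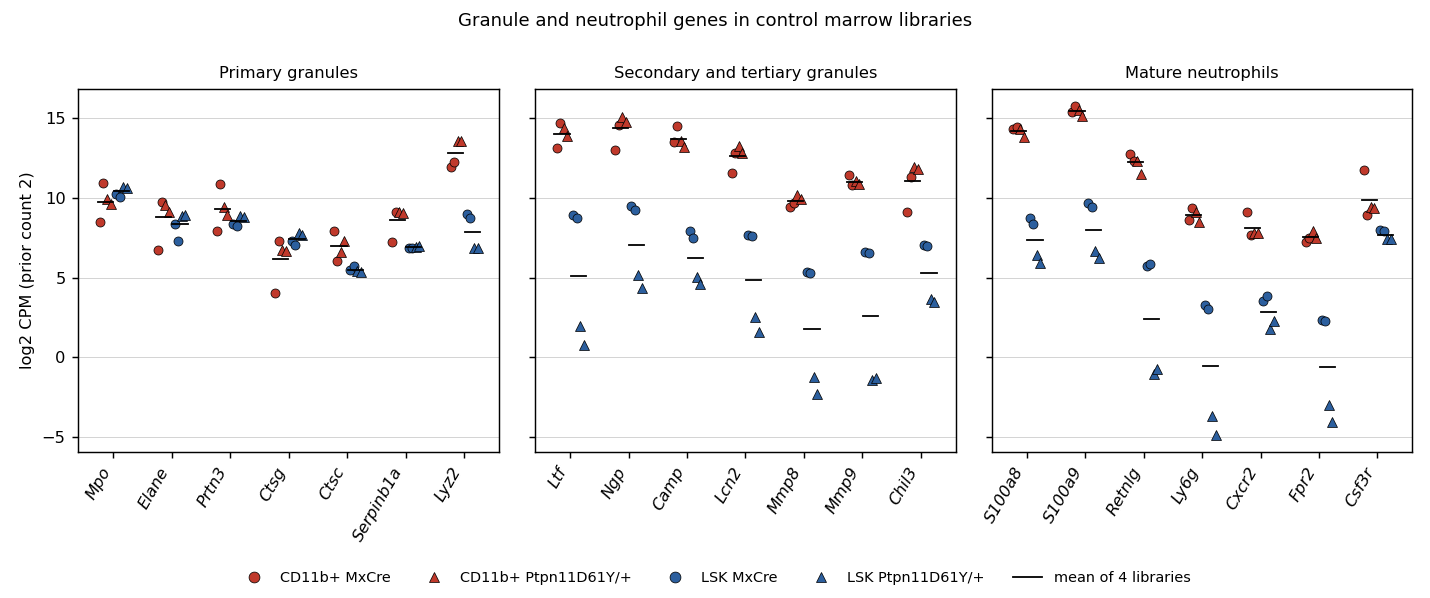
Level (log2 CPM) of primary granule, secondary granule and mature neutrophil genes in each of 4 CD11b+ and 4 LSK control libraries, 1 point per library, shaped by genotype, with lines at the means. Mpo, Elane and Prtn3 overlap between the cell types, whereas Ltf, Ngp and Camp are higher in all CD11b+ libraries and split by genotype within LSK cells.

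The transcription factors of the myeloid lineage changed in both directions: 9 of 21 rose, 4 fell and 8 were not called (median 0.70). With library size alone 7 rose and 7 fell (median -0.32). The C/EBP factors of later maturation led the rises. Cebpe, which drives secondary granule genes, stood at 7.84, 9.09, 8.56 and 8.32 in CD11b+ and at 4.02, 3.34, 3.53 and 3.20 in LSK libraries, without overlap (4.97 ± 0.36, adjusted p = 0.000121). Cebpd varied little within a cell type, at 8.03, 7.55, 7.36 and 6.97 against 3.36, 3.42, 2.58 and 2.40 (4.56 ± 0.21, adjusted p = 5.91e-05). Cebpb, the factor of emergency granulopoiesis and of monocytes, spread widely among CD11b+ libraries at 12.44, 9.14, 7.25 and 6.69 and stood at 3.13, 3.28, 2.43 and 2.32 in LSK libraries (6.50 ± 1.20, adjusted p = 0.00382). Its lowest CD11b+ value lay above its highest LSK value.

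The factors of the earlier steps moved less or not detectably. Spi1 (PU.1) stood at 8.99, 8.58, 9.05 and 8.79 against 6.59, 6.78, 6.07 and 6.20, and rose by 2.45 ± 0.23 (adjusted p = 0.000265). Cebpa, which commits progenitors to the granulocyte line, gave 6.33, 5.32, 5.84 and 5.74 against 5.39, 5.59, 5.28 and 5.22. These overlapped (0.48 ± 0.23, adjusted p = 0.115). Gfi1, a repressor of monocyte genes, gave -0.32 ± 0.51 (adjusted p = 0.616, but 0.45 and called in a fit of Ptpn11D61Y/+ libraries only), with CD11b+ MxCre replicate 1 at 2.97 and the other CD11b+ libraries from 5.13 to 5.92. Runx1 missed the threshold at -0.41 ± 0.15 (adjusted p = 0.0513), although all LSK libraries lay above all CD11b+ libraries, and the value turned to 0.52 when the trend over transcript length was removed, an alternative chosen after seeing the data. Of the monocyte factors, Irf8 rose by 1.36 ± 0.23.

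Gata2, Myc and Mycn fell, whereas Gata1 was called higher. Gata2, a factor of stem cells, stood at 2.91, 0.93, -0.05 and -0.70 in CD11b+ and at 7.56, 7.48, 8.18 and 8.08 in LSK libraries (-6.87 ± 0.92, adjusted p = 0.00107). Myc, the growth regulator, stood at 4.31, 4.32, 5.01 and 5.66 against 8.02, 8.36, 7.94 and 7.99 (-3.24 ± 0.34, adjusted p = 0.000416), and Mycn fell by 6.17 on the log2 scale. For all of these the LSK libraries lay above all CD11b+ libraries. Gata1, the erythroid and megakaryocytic factor, went the other way at 2.39, 7.46, 7.35 and 6.83 against 4.23, 3.92, 4.58 and 4.47. CD11b+ MxCre replicate 1 lay below all LSK libraries and the other CD11b+ libraries above them, and the call (2.51 ± 0.84, adjusted p = 0.0394) was lost in 7 of the 8 fits that left out 1 library, with adjusted p = 0.36 and a log2 fold change of 1.31 without CD11b+ MxCre replicate 2. Globin RNA, given above, moved with Gata1 across CD11b+ libraries, and its part in the result was not tested.

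**Figure D4:**
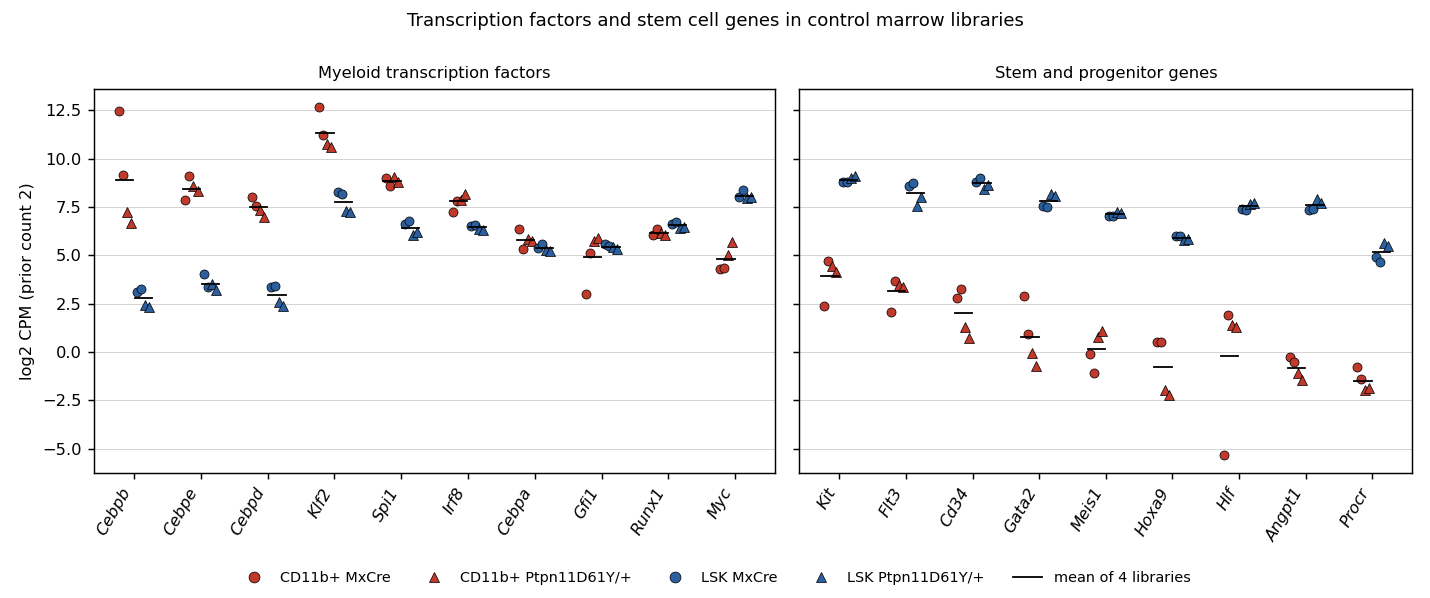
Level (log2 CPM) of transcription factors and stem cell genes in each of 4 CD11b+ and 4 LSK control libraries, 1 point per library, shaped by genotype, with lines at the means. Cebpe, Cebpd, Cebpb and Spi1 are higher in all CD11b+ libraries, Gata2, Meis1 and Myc are higher in all LSK libraries, and Cebpa overlaps.

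Monocyte and macrophage genes rose too. Of 19 monocyte genes 15 rose and 1 fell (median 3.01), and of 14 genes of tissue macrophages 11 rose and none fell (median 4.52). Lyz2, lysozyme M, held in the primary granule list and made by monocytes too, stood at 11.95, 12.21, 13.59 and 13.56 in CD11b+ and at 9.0, 8.75, 6.88 and 6.85 in LSK libraries (4.96 ± 0.84, adjusted p = 0.00266). The receptor genes Ccr2, Csf1r and Cd14 rose by 3.01 ± 0.46, 2.26 ± 0.49 and 5.23 ± 0.49, and Ly6c2, part of the Ly6C antigen, by 3.03 ± 0.51. Each of these separated all CD11b+ from all LSK libraries. Spn, the sialophorin of leukocytes and progenitors, was the monocyte-list gene that fell (-1.48 ± 0.39, adjusted p = 0.0155).

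The macrophage genes were dominated by 1 library. Their summed level was 22701 CPM in CD11b+ MxCre replicate 1 and 806, 643 and 685 CPM in the other CD11b+ libraries, against 73.9 to 163 CPM in LSK libraries. C1qa, a subunit of complement C1q and the most abundant of them, stood at 12.72, 7.38, 6.01 and 5.97 in CD11b+ and at 3.97, 4.61, 1.11 and 0.04 in LSK libraries. Cd5l stood at 11.08, 5.51, 4.38 and 4.78 against -1.53, -1.53, -1.26 and -1.73. CD11b+ MxCre replicate 1 was by far the highest for both, yet the remaining CD11b+ libraries also lay above all LSK libraries. Without that library 11 of the 14 macrophage genes were called higher and 1 lower (median 3.25), 7 without LSK MxCre replicate 1 or 2, and 1 without both.

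The equipment for phagocytosis and killing rose nearly throughout. All 8 NADPH oxidase genes were called higher, and all separated the cell types in every library. Cybb, the catalytic gp91phox chain, stood at 8.92, 9.97, 10.11 and 10.23 in CD11b+ and at 6.69, 6.35, 4.96 and 4.65 in LSK libraries (4.18 ± 0.59, adjusted p = 0.00131). Its partner Cyba rose by 4.93 ± 0.44 and the cytosolic organizer Ncf1 by 4.07 ± 0.19. Rac1, a GTPase of most cells, had the smallest change of the list (0.76 ± 0.18, adjusted p = 0.0106), which turned to -0.26 with library size alone. The count of 8 held without both MxCre LSK libraries and without CD11b+ MxCre replicate 1.

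Of 14 Fc and complement receptor genes 12 rose and none fell (median 3.49), in the same number without either set of doubted libraries. C5ar1, the receptor for the complement fragment C5a, stood at 9.80, 7.96, 8.17 and 7.93 in CD11b+ and at 2.94, 3.04, -0.66 and -0.32 in LSK libraries (7.36 ± 0.76, adjusted p = 0.000412). Of 28 pattern recognition genes 20 rose and 2 fell (median 2.24), with 0 or 1 lower when any library but CD11b+ MxCre replicate 1 or CD11b+ Ptpn11D61Y/+ replicate 2 was left out. Tlr2, a receptor for bacterial lipoproteins, rose by 3.97 ± 0.56 and the inflammasome sensor Nlrp3 by 5.03 ± 0.72. Of 23 lysosomal genes 20 rose and none fell (median 2.52), but 5 rose without both MxCre LSK libraries. Over all genes that fit kept 3757 of 8829 calls. Ctsd, cathepsin D and the most abundant of them, stood at 14.20, 10.65, 10.56 and 10.08 in CD11b+ and between 7.91 and 8.03 in LSK libraries (3.85 ± 0.99, adjusted p = 0.0145). The call was lost without LSK MxCre replicate 1 (adjusted p = 0.053) and without LSK MxCre replicate 2 (0.055).

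Receptors for growth factors and guidance cues changed in both directions. Of 23 growth factor receptor genes 11 rose and 4 fell (median 0.89, or -0.14 with 4 higher and 9 lower with library size alone). Of 26 genes of chemokine receptors, integrins and selectins 17 rose and 5 fell (median 1.60), against 9 and 6 with library size alone (median 0.57). Of the growth factor receptors 7 rose without LSK MxCre replicate 1 or 2 and 6 without both, where 3 of the chemokine receptor and adhesion genes fell. Csf3r, the receptor for granulocyte colony-stimulating factor, stood at 11.75, 8.94, 9.42 and 9.35 in CD11b+ and at 7.97, 7.89, 7.42 and 7.40 in LSK libraries (2.5 ± 0.58, adjusted p = 0.00951), and was thus plainly expressed in LSK cells as well. Flt3, the receptor of early progenitors, stood at 2.08, 3.68, 3.47 and 3.37 against 8.60, 8.72, 7.57 and 8.0 (-4.97 ± 0.47, adjusted p = 0.000291). Cxcr4, the marrow retention receptor for CXCL12, rose by 3.23 ± 0.28, and Itga6, the laminin-binding integrin alpha 6, fell by 3.26 on the log2 scale. In both the cell types did not overlap.

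Genes of stem cell identity fell in CD11b+ cells with few exceptions. Of 33 such genes 29 fell and none rose (median -4.49), and for 29 all LSK libraries lay above all CD11b+ libraries. Without both MxCre LSK libraries 20 fell (median -5.56), and without CD11b+ MxCre replicate 1 32 fell and 1 rose (median -5.67). Meis1, the cofactor of HOX proteins, stood at -0.08, -1.08, 0.77 and 1.10 in CD11b+ and at 7.03, 7.03, 7.26 and 7.21 in LSK libraries (-6.91 ± 0.41, adjusted p = 7.99e-05). Cd34, the sialomucin of progenitors, stood at 2.82, 3.24, 1.29 and 0.73 against 8.81, 9.0, 8.44 and 8.61 (-6.68 ± 0.46, adjusted p = 0.000106). Hlf, a stem cell transcription factor, was at -5.34, 1.92, 1.41 and 1.28 in CD11b+ and between 7.36 and 7.68 in LSK libraries. Mecom, which encodes EVI1, had 0, 2, 2 and 3 counts in CD11b+ libraries and 4155, 3360, 8994 and 5632 in LSK libraries. No CD11b+ library approached the LSK libraries in these genes.

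The HOXA cluster and its cofactors followed, with 9 of 14 tested genes lower and 1 higher (median -4.04). Hoxa9, a leukemia-associated HOX gene, stood at 0.52, 0.54, -1.95 and -2.22 in CD11b+ and at 5.99, 5.97, 5.77 and 5.84 in LSK libraries (-6.66 ± 0.60, adjusted p = 0.000253). Hmga2, a chromatin protein of fetal stem cells held in the stem cell list, had 0, 0, 1 and 2 counts against 1096, 1238, 839 and 833. Of 14 tested genes of the imprinted growth network, a group of genes expressed from 1 parental copy, several of which restrain growth, 9 fell and none rose (median -5.26). Phlda2 had no count in any CD11b+ library and 213, 193, 283 and 224 in LSK libraries, so that it was at least 23.0-fold lower, with a floor of 3 counts per library. Dlk1 had 0, 0, 1 and 1 counts against 145, 192, 386 and 303, and Meg3 fell by 8.21 ± 1.04 on the log2 scale. Of 20 epigenetic regulators 10 fell and 3 rose (median -0.79, or -0.03 with 5 lower and 4 higher once the trend over length was removed), and 4 fell and 1 rose without both MxCre LSK libraries. The DNA methyltransferase Dnmt3b fell from 6.44, 6.50, 6.21 and 6.29 to 1.64, 1.99, 1.87 and 2.12 (-4.45 ± 0.20, adjusted p = 5.91e-05), and the methylcytosine dioxygenase Tet1 and the histone methyltransferase Kmt2a by 4.61 and 2.41 on the log2 scale.

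Among the anti-apoptotic BCL-2 genes, Bcl2 and Bcl2l2 were lower in CD11b+ cells, and Mcl1, Bcl2l1 and the A1 genes (Bcl2a1a, Bcl2a1b and Bcl2a1d) were higher. Of 7 tested anti-apoptotic members 5 rose and 2 fell, with no overlap between the cell types in any of them. Bcl2 stood at 2.91, 4.21, 4.14 and 4.19 in CD11b+ and at 5.87, 5.96, 6.14 and 5.94 in LSK libraries (-2.05 ± 0.29, adjusted p = 0.00131). Bcl2l1, which encodes BCL-XL, stood at 7.47, 9.12, 9.10 and 8.86 against 4.61, 4.68, 4.59 and 4.44 (4.17 ± 0.40, adjusted p = 0.000306). Mcl1 stood at 11.01, 9.56, 9.94 and 9.78 against 8.74, 8.54, 8.44 and 8.29 (1.66 ± 0.32, adjusted p = 0.00475). Per exon length Mcl1 was the most abundant member in both cell types, at 343 RPKM in CD11b+ and 107 RPKM in LSK cells, and Bcl2l1 went from 5.23 RPKM in LSK cells to 95.3 RPKM. Bcl2 had 1.69 RPKM in CD11b+ and 6.90 RPKM in LSK cells. Bcl2l2, which encodes BCL-w, fell by 1.69 ± 0.23 on the log2 scale, and Bcl2a1b rose by 5.51 ± 1.08, with uncertain assignment among the near-identical A1 copies. Erythroid cells are known to carry much BCL-XL, and the erythroid list summed to 54011, 254470, 171390 and 172620 CPM in CD11b+ and 2219, 1337, 811 and 749 CPM in LSK libraries. Bcl2l1 was lowest in CD11b+ MxCre replicate 1, where these genes were lowest too, and their part in its rise was not tested. Without both MxCre LSK libraries 1 anti-apoptotic gene was called higher and 2 lower.

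Most BH3-only genes were called higher under TMM. Of 7 tested BH3-only genes 6 rose and none fell (median 1.64), but 3 rose without both MxCre LSK libraries and 2 with library size alone (median 0.61). Pmaip1, which encodes NOXA, the partner of MCL1, stood at 9.04, 6.02, 6.15 and 6.27 in CD11b+ and at 3.55, 3.42, 2.36 and 2.5 in LSK libraries (4.26 ± 0.64, adjusted p = 0.00174). Bmf rose by 2.40 ± 0.46 and Bbc3, which encodes PUMA, by 1.64 ± 0.33. Bcl2l11, which encodes BIM, gave 0.67 ± 0.29 (adjusted p = 0.0849), with overlapping groups. Of the pore formers Bax rose by 1.43 ± 0.18 (adjusted p = 0.000869) and Bak1 by 0.98 ± 0.23 (adjusted p = 0.0106), which went to -0.05 with library size alone, and Bok gave -0.59 ± 0.56 (adjusted p = 0.402). Of the pore formers 1 rose without both MxCre LSK libraries, and with library size alone none rose and 1 fell. Of 19 genes of caspases, the apoptosome and their inhibitors 8 rose and 3 fell (median 0.22, or -0.80 with 1 higher and 10 lower with library size alone). Without both MxCre LSK libraries 1 rose and none fell, none fell without either of them alone, 5 fell without CD11b+ MxCre replicate 1, and 1 fell without CD11b+ MxCre replicate 2 or CD11b+ Ptpn11D61Y/+ replicate 1. Birc5, survivin, a gene of dividing cells, rose by 3.63 ± 0.63. Casp8, the initiator of death receptor signalling, stood at 3.50, 2.90, 5.41 and 5.79 in CD11b+ and at 6.32, 6.47, 6.18 and 6.21 in LSK libraries (-1.87 ± 0.56, adjusted p = 0.0258). Its call was lost without CD11b+ MxCre replicate 1 (adjusted p = 0.07) or replicate 2 (0.082) and without LSK MxCre replicate 1 (0.053) or replicate 2 (0.051).

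**Figure D5:**
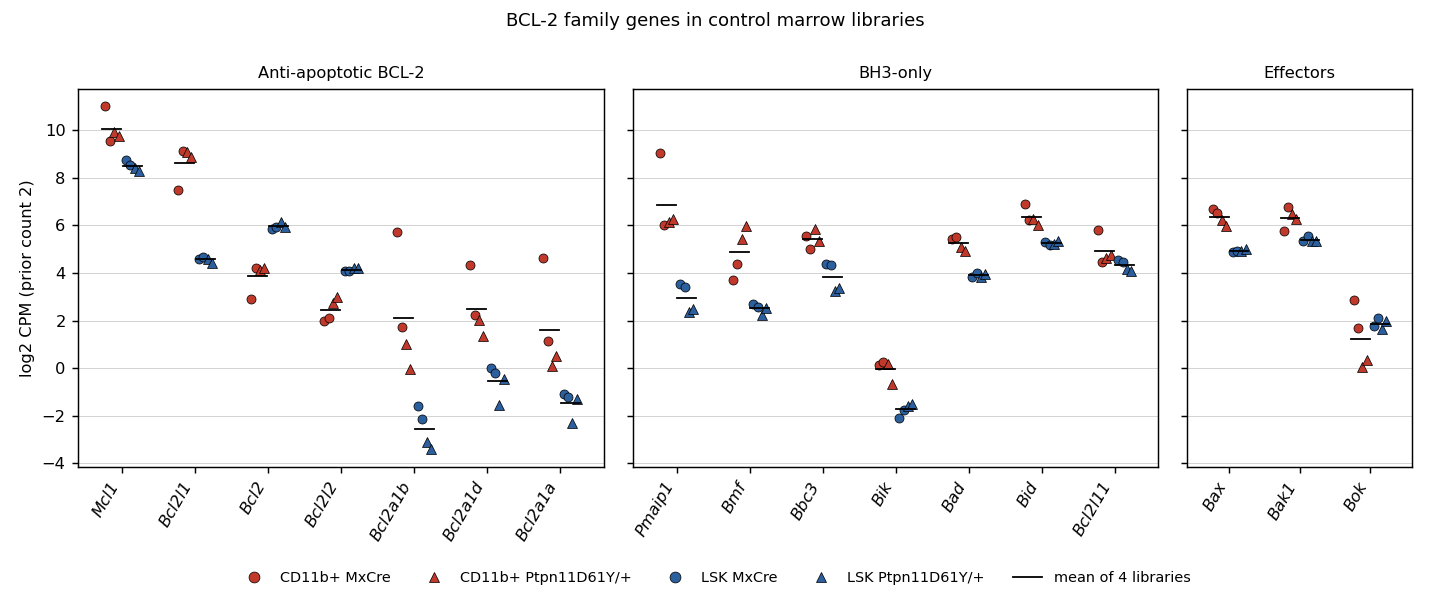
Level (log2 CPM) of BCL-2 family genes in each of 4 CD11b+ and 4 LSK control libraries, 1 point per library, shaped by genotype, with lines at the means. Bcl2 and Bcl2l2 are higher in all LSK libraries, and Mcl1, Bcl2l1 and Pmaip1 in all CD11b+ libraries; the higher level of Bak1 in CD11b+ cells is lost with scaling by library size alone.

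Ptpn11 itself (ENSMUSG00000043733, chr5:121130533-121191397 of GRCm38, minus strand) was expressed in both cell types. Its levels were 4.57, 5.59, 5.57 and 5.84 log2 CPM in CD11b+ and 6.84, 6.90, 6.05 and 5.97 in LSK libraries. All LSK libraries lay above all CD11b+ libraries, with a narrow gap between Ptpn11D61Y/+ libraries. The log2 fold change of -1.0 ± 0.36 just passed the test (adjusted p = 0.0481). It was lost in 6 of the 8 fits that left out 1 library, those without LSK MxCre replicate 1 (adjusted p = 0.11) or 2 (0.11), CD11b+ MxCre replicate 2 (0.12), LSK Ptpn11D61Y/+ replicate 1 (0.059) or 2 (0.05) and CD11b+ Ptpn11D61Y/+ replicate 1 (0.083). With the trend over length removed it was -0.39 (adjusted p = 0.211). In a fit of the 4 groups the log2 fold change was -1.70 in MxCre and -0.30 in Ptpn11D61Y/+ libraries. The interaction test gave an adjusted p of 0.135. Per the study's supplement, Ptpn11D61Y/+ mice have 1 working Ptpn11 allele, comparable to a heterozygous knock-out, whereas MxCre mice express the gene at normal levels. The part of this difference in these values was not tested. Any reads of the mutant allele would not be told apart from those of the normal allele by gene counts.

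Around SHP2, 13 of 28 genes of the RAS pathway rose and 7 fell (median 0.39, or -0.63 with 6 higher and 14 lower with library size alone), and 11 rose and 4 fell without both MxCre LSK libraries. Ptpn6, which encodes the related phosphatase SHP1, rose by 2.25 ± 0.22 and was at 275 RPKM in CD11b+ cells, where Ptpn11 was at 5.89 RPKM. Rasgrp4, a RAS activator of myeloid and mast cells, rose by 5.41 ± 0.56 and Mapk3, which encodes ERK1, by 3.11 ± 0.30. Cbl, a ubiquitin ligase that ends receptor signals and is mutated in the same leukemia, stood at 3.34, 2.68, 3.71 and 5.06 against 6.19, 6.18, 5.63 and 5.48 (-2.07 ± 0.54, adjusted p = 0.015). Of 14 ERK feedback genes and transcriptional targets 7 fell and 4 rose (median -1.56), but 2 fell and 1 rose without both MxCre LSK libraries. With all 8 libraries the changed members included Spred1, an inhibitor of RAS, at -2.69 ± 0.26, Ccnd1, cyclin D1, at -2.72 ± 0.25, and Dusp6, the ERK phosphatase, at 1.74 ± 0.29. The direction within this list was not uniform.

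Genes of cytokines, NF-kB and the interferon response were called higher in CD11b+ cells more often than lower under TMM. Of 16 cytokine and chemokine genes 10 rose and none fell (median 2.52), of 14 genes of NF-kB subunits and feedback 9 rose and 1 fell (median 1.28), of 18 immediate-early genes 6 rose and 2 fell (median 1.12) and of 24 interferon-stimulated genes 15 rose and 1 fell (median 1.22). With library size alone the counts of higher and lower genes were 6 and 1, 1 and 3, 4 and 4, and 8 and 4. In these lists 5, 5, 3 and 12 genes rose without both MxCre LSK libraries. Without CD11b+ MxCre replicate 2, 12 immediate-early genes rose, and without CD11b+ MxCre replicate 1, 3 interferon-stimulated genes fell. Il1b stood at 12.07, 7.77, 8.40 and 8.16 in CD11b+ and at 2.98, 3.44, -0.67 and -1.65 in LSK libraries (8.66 ± 1.10, adjusted p = 0.000873), with CD11b+ MxCre replicate 1 far above the others. The neutrophil chemokine gene Cxcl2 rose by 7.50 ± 1.19, and Nfkbia, the inhibitor of NF-kB, by 3.53 ± 0.76. Junb stood at 14.18, 10.84, 10.90 and 10.68 against 9.53, 9.34, 8.85 and 8.95 (2.88 ± 0.78, adjusted p = 0.0173), a call lost without LSK MxCre replicate 1 or replicate 2 (adjusted p = 0.062 for each). The immediate-early list summed to 49817 CPM in CD11b+ MxCre replicate 1 and to 9709, 14536 and 14986 CPM in the other CD11b+ libraries, against 12161 to 17341 CPM in LSK libraries. Fos went against the list, at 10.21, 9.18, 10.33 and 10.79 against 11.69, 11.53, 11.36 and 11.46, and fell by 1.33 ± 0.34 on the log2 scale (adjusted p = 0.0141). Tnip3, an inhibitor of NF-kB, was the NF-kB gene that fell. It had 0, 0, 28 and 31 counts in CD11b+ libraries and 960, 948, 2333 and 1867 in LSK libraries. Isg15 rose by 4.56 ± 0.46 and Ifi44 fell by 3.77 ± 0.49. The time between poly I:C and harvest of each library is not in the labels, and the part of magnetic isolation in these levels cannot be told apart from that of the cell type.

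Calls among cell cycle genes changed with the libraries in the fit. Of 43 S-phase genes 5 rose and 5 fell (median -0.40), and of 54 G2/M genes 10 rose and 1 fell (median 0.66, or -0.36 with library size alone). With all 8 libraries both lists were called less often than all tested genes, of which 24.8% were higher and 27.6% lower. The G2/M genes summed to 2768 CPM in CD11b+ MxCre replicate 1 and to 14314, 12747 and 10802 CPM in the other CD11b+ libraries, against 4548 to 5443 CPM in LSK libraries. Without that library 37 G2/M genes were called higher and 4 lower, and 16 S-phase genes higher and 12 lower. Of the G2/M genes 3 rose without both MxCre LSK libraries, where no S-phase gene rose and 1 fell. The S-phase counts depended on every library, with 0 to 2 higher and 1 to 6 lower when any of the other 7 was left out. Ube2c, a ubiquitin-conjugating enzyme of mitosis, stood at 7.08, 10.27, 9.25 and 8.62 in CD11b+ and between 5.40 and 5.64 in LSK libraries (3.66 ± 0.63, adjusted p = 0.00295). Rrm2, a subunit of ribonucleotide reductase, stood at 6.34, 9.61, 9.19 and 8.94 against 6.26, 6.38, 6.33 and 6.07. Its groups overlapped through CD11b+ MxCre replicate 1, and the call (2.65 ± 0.61, adjusted p = 0.0096) was lost without CD11b+ MxCre replicate 2 (adjusted p = 0.073). Of 17 p53 genes 10 rose and 2 fell (median 1.27), against 5 and 6 with library size alone and 11 and 4 without CD11b+ MxCre replicate 1, with Trp53 itself lower by -2.16 ± 0.53 (adjusted p = 0.0118).

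Under TMM genes of the machinery of growth parted in 2 directions, a split that rests on the scaling for the ribosomal protein genes. Of 16 genes of telomerase and ribosome biogenesis 14 fell and none rose (median -1.42), and 5 fell without both MxCre LSK libraries. Polr1b, a subunit of RNA polymerase I, stood at 2.92, 3.36, 3.35 and 3.55 in CD11b+ and at 6.11, 6.03, 6.13 and 6.07 in LSK libraries (-2.78 ± 0.18, adjusted p = 8.49e-05). Npm1, nucleophosmin, fell by 1.09 ± 0.21 on the log2 scale, and Tert, the telomerase reverse transcriptase, by 4.23 ± 0.92. By contrast, 34 of 78 tested cytosolic ribosomal protein genes were called higher and 1 lower under TMM (median 0.63), which became 3 higher and 27 lower with library size alone (median -0.39), 10 higher without LSK MxCre replicate 1 or 2 and 4 higher without both. Rplp1, an acidic ribosomal protein gene outside that list that was among the 10 most abundant transcripts per length in both cell types, stood at 13.04, 12.55, 10.51 and 10.11 against 9.82, 10.04, 9.87 and 9.99, and its call (1.63 ± 0.56, adjusted p = 0.0408) was lost without LSK MxCre replicate 1 (adjusted p = 0.14) or 2 (0.15), CD11b+ MxCre replicate 2 (0.072), LSK Ptpn11D61Y/+ replicate 1 (0.055) and CD11b+ Ptpn11D61Y/+ replicate 1 (0.056).

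Genes of oxidative phosphorylation rose in 58 of 78 tested cases and fell in none (median 1.56), against 34 higher and 12 lower with library size alone, 59 higher once the trend over length was removed and 40 without both MxCre LSK libraries. Cox6a1, a subunit of cytochrome c oxidase, stood at 9.78, 9.83, 8.68 and 8.05 in CD11b+ and between 6.15 and 6.35 in LSK libraries (2.86 ± 0.35, adjusted p = 0.00073). The CD11b+ MxCre libraries were the higher pair, as for Rplp1. Of 20 glycolysis genes 8 rose and 1 fell (median 0.41, or -0.61 with library size alone; 3 fell without CD11b+ MxCre replicate 1 and 2 without CD11b+ MxCre replicate 2), with the lactate exporter Slc16a3 rising by 5.04 ± 0.37 and Pfkl, phosphofructokinase of the liver type, at -1.11 ± 0.18. Transcript length moved with the direction of change: in 5 bins of equal size by exon length the median log2 fold change went from 0.82 in the shortest (102 to 2408 bases) through 0.17, -0.10 and -0.38 to -0.74 in the longest. The steps were wider in MxCre libraries (1.02 to -0.93) than in Ptpn11D61Y/+ libraries (0.61 to -0.52). The part of RNA length or quality in the results for these short-gene lists was not tested beyond the removal of the trend.

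Of 11 nuclear envelope genes 4 were called higher and none lower (median 0.53, or -0.49 with library size alone). Over all tested genes 24.8% were called higher and 27.6% lower. Lmna, which encodes lamin A and C, stood at 5.91, 7.01, 7.60 and 7.05 in CD11b+ and at 4.45, 4.22, 3.59 and 3.79 in LSK libraries (2.94 ± 0.41, adjusted p = 0.00122). The groups did not overlap.

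Markers of other cells were present in the CD11b+ fraction. Of 17 tested erythroid genes 14 rose and none fell (median 3.60), with Hba-a1 as the most abundant. Of 12 T cell genes 8 rose and none fell (median 4.01), but their summed level was low, at 183, 211, 259 and 237 CPM in CD11b+ and 24.1 to 47.7 CPM in LSK libraries, and 6 of them were at 0 in CD11b+ MxCre replicate 1, the antigen receptor genes Trac, Cd3e and Cd3g included. Cd3d rose by 5.86 ± 0.60. Of 9 NK cell genes 4 rose and none fell (median 2.65), with summed levels of 8.63, 44.6, 47.6 and 42.2 CPM in CD11b+ and 6.13 to 14.1 CPM in LSK libraries. Of these genes 8 erythroid, 3 T cell and 2 NK cell ones rose without both MxCre LSK libraries. Without CD11b+ MxCre replicate 2, 7 erythroid and 3 T cell genes rose, without LSK MxCre replicate 2, 9 and 4, and without 1 of the Ptpn11D61Y/+ libraries 8 or 9 and 3 to 5.

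Of 14 B cell genes 12 rose and 1 fell (median 3.84), yet the sum went the other way, at 1517, 4906, 6150 and 9936 CPM in CD11b+ and 11381, 5353, 23648 and 21479 CPM in LSK libraries. The gene that fell, Ighm, the heavy chain of immunoglobulin M and the most abundant of the list, stood at 10.17, 11.55, 12.06 and 12.85 against 13.45, 12.35, 14.52 and 14.38 (-1.97 ± 0.43, adjusted p = 0.00735), with overlap between the groups. Of 15 early lymphoid genes 4 rose and 4 fell (median 0.16, or -0.86 with library size alone), of 6 plasma cell genes 2 rose and 1 fell (median -0.45), of 11 dendritic cell genes 4 rose and 3 fell (median 1.56) and of 11 MHC class II genes 7 rose and none fell (median 2.04). The B cell genes that rose were 7 without both MxCre LSK libraries, where 4 MHC class II genes rose and 1 early lymphoid gene fell, and 5 B cell genes rose without CD11b+ MxCre replicate 2 and 7 without LSK Ptpn11D61Y/+ replicate 1. Without CD11b+ MxCre replicate 1, 7 early lymphoid genes rose, and 1 plasma cell gene rose and 3 fell. The balance of the plasma cell genes also turned without both MxCre LSK libraries, with 1 higher and 2 lower. Whether the LSK libraries hold RNA of B-lineage cells was not tested.

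Genes of megakaryocytes and of mast cells pointed back to the LSK fraction or in both directions. Of 14 tested megakaryocyte genes 7 fell and 1 rose (median -1.98), with Itga2b, the platelet integrin CD41, at 3.48, 4.21, 3.67 and 3.34 in CD11b+ and at 7.03, 7.09, 7.93 and 7.72 in LSK libraries (-3.74 ± 0.33, adjusted p = 0.000224). Of 16 genes of mast cells, basophils and eosinophils 7 rose and 4 fell (median 0.10, or -0.91 with library size alone), with 4 higher without both MxCre LSK libraries. Prg2, the major basic protein of eosinophils and the most abundant of them, rose by 3.81 ± 0.47, whereas Cpa3, the carboxypeptidase of mast cell progenitors, fell by 6.48 ± 0.89 on the log2 scale. Of 11 tested stromal and endothelial genes none rose and 2 fell (median 0.87, or -0.15 with library size alone), none fell without both MxCre LSK libraries and 2 rose without CD11b+ MxCre replicate 2. Of 7 genes of antigens of mature lineages, a list that holds Itgam, 6 were called higher in CD11b+ cells and none lower (median 3.20). With library size alone 2 were called higher (median 2.19), and 3 without any 1 of the 4 Ptpn11D61Y/+ libraries.

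The difference between the cell types itself differed between the control genotypes for 185 genes (1.1%). The signed CD11b+ to LSK log2 fold change was higher in Ptpn11D61Y/+ libraries for 135 genes (0.802%) and lower for 50 (0.297%). A higher value can be a smaller gap between the cell types, as for Casp8, and a lower value a wider gap, as for Hoxa9. The adjusted p of the 185 genes lay between 0.0163 and 0.0497. This count for cell type by genotype moved with the library left out. It was 0 in edgeR's quasi-likelihood test without any 1 of the 4 LSK or the 2 Ptpn11D61Y/+ CD11b+ libraries (2560 to 3676 genes at an unadjusted p under 0.05), 6536 without CD11b+ MxCre replicate 1 and 10985 without CD11b+ MxCre replicate 2. Each of these fits leaves 1 group with a single library, which is assumed to vary like the others. In the same fit of 4 groups, 54.4% of genes were called in MxCre libraries (24.8% higher, 29.6% lower) and 38.5% in Ptpn11D61Y/+ libraries (19.0% higher, 19.5% lower). That order turned when the cell type difference was fitted in each genotype alone, with 4154 genes called in MxCre and 11991 in Ptpn11D61Y/+ libraries. For the genotype over both cell types 0.0% of genes were called by edgeR's quasi-likelihood test, with 1227 genes at an unadjusted p under 0.05.

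Granulocyte genes were prominent among these 185 genes. Of 44 tested genes of the secondary granule and mature neutrophil lists 12 were called, and 39 were higher in both MxCre LSK libraries than in both Ptpn11D61Y/+ LSK libraries, an arrangement found in 30.4% of all tested genes. Mmp9, gelatinase B, stood at 11.40, 10.82, 11.03 and 10.84 in CD11b+ and at 6.57, 6.55, -1.44 and -1.30 in LSK libraries. The CD11b+ libraries hardly varied while the LSK libraries split by genotype, and the fold was larger by 7.82 log2 units in Ptpn11D61Y/+ libraries (adjusted p = 0.0163). Ly6g (7.80, adjusted p = 0.043) had the same arrangement, with 8 and 1 counts in the Ptpn11D61Y/+ LSK libraries. Scrg1 had 85, 69, 0 and 0 counts in LSK libraries and 712, 1096, 2233 and 1233 in CD11b+ libraries (adjusted p = 0.043).

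Other genes of the 185 differed between the genotypes in CD11b+ cells. Arhgap5, a GTPase-activating protein, had 0, 0, 79 and 125 counts in CD11b+ libraries and 1027, 854, 1904 and 1114 in LSK libraries, and Apol7e had 0, 0, 72 and 96 against 1019, 792, 1313 and 1138. Both were at 0 in both MxCre CD11b+ libraries, as were 17 of the 185 genes. The share of all tested genes with this arrangement was not counted, so whether 17 exceeds the background was not tested. The MxCre CD11b+ libraries detected fewer genes (14885 and 17493) than the Ptpn11D61Y/+ CD11b+ libraries (21304 and 21425). The median exon length was 4429 bases for the 134 genes with a higher signed fold change in Ptpn11D61Y/+ libraries that had a length. It was 1205 bases for the 50 with a lower one and 3781 bases for 16769 tested genes. Among the genes with a lower signed fold change in Ptpn11D61Y/+ libraries were the basophil proteases Prss34 (-5.79, adjusted p = 0.0495) and Mcpt8 (-4.89, adjusted p = 0.049). Both were higher in LSK libraries of that genotype (5.72 and 7.12 for Prss34, against 4.66 and 4.27 in MxCre). Both were lower in its CD11b+ libraries (0.42 and -0.25 for Prss34, against 4.21 and 3.19), so the gap between the cell types was wider there. Grb10, an imprinted adaptor, had a lower signed fold change too (-3.48, adjusted p = 0.0476).

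In terminally ill S3 MxCre;Ptpn11D61Y/+ mice the mutant allele is expressed. Their 3 CD11b+ and 3 LSK libraries of the marrow came from 4 mice, of which 2 gave both cell types, a pairing that the fit of all 21 libraries does not use. The difference between CD11b+ and LSK cells in them differed from that in controls for 0 of 19555 genes (0.0%) by edgeR's quasi-likelihood test, with 1111 genes at an unadjusted p under 0.05 and 122 called by DESeq2. The smallest adjusted p, 0.124, was that of Cd36, a scavenger receptor named after its value was seen, whose CD11b+ to LSK difference was 4.87 log2 units in controls and 1.67 in S3 mice. Slc22a3, the gene with the largest fall in controls, followed at -12.97 in controls of this fit and -7.05 in S3 mice (adjusted p = 0.135), its control value resting on libraries at a count of 0.

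Spleen CD11b+ cells of the same control genotypes differed directly from marrow CD11b+ cells for 1949 of 19555 genes (9.97%), 808 higher (4.13%) and 1141 lower (5.83%). Counts of this contrast moved with the libraries in the fit, as given in the last section. Erythroid, cell cycle and granule genes were higher in the marrow fraction: 17 of the erythroid genes, 38 G2/M genes, 21 S-phase genes, 11 secondary granule genes and 8 primary granule genes were lower in the spleen, with 0, 0, 0, 0 and 1 higher. In the spleen 7 MHC class II genes, 10 NF-kB genes and 6 dendritic cell genes were higher and none lower. At the ends of this contrast stood genes with no count in one tissue, whose fitted folds are not given. Rag1, a recombinase of lymphocyte precursors, was at 0 in all control spleen libraries and at -0.68, 3.99, 4.49 and 6.11 log2 CPM in the marrow CD11b+ libraries. Hs3st2, a heparan sulfate sulfotransferase, was at 0 in all control marrow CD11b+ libraries and at 4.04, 3.86, 5.70 and 3.17 in the spleen.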

How the data were processed

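RNA of control BM CD11b+ and LSK cells was sequenced by the authors as paired-end reads of stranded mRNA libraries. The submitters' processing notes name bcl2fastq 2.20.0.422, FastQC 0.11.9, Trim Galore 0.6.5, STAR 2.5.3a and limma, and GRCm38 is the build. The counting program, its annotation and its use of strand are not given in the sources used here, so genes that overlap another (such as Itgam and Gm49368, or Prtn3 and Plppr3) and near-identical copies are uncertain. The deposited values are raw counts per Ensembl gene, without normalization.

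Counts were fitted with edgeR 4.0.16 under R 4.3.3 (filterByExpr with a minimum count of 10 and total of 15, TMM, robust quasi-likelihood fit of cell type and genotype in 8 libraries, 5 residual degrees of freedom), with Benjamini-Hochberg adjustment over the 16839 genes kept, which held 99.96% of counts, and a threshold of 0.05. Standard errors come from the estimate and its F statistic, and log2 CPM from a prior count of 2. RPKM used exon lengths of GENCODE vM21 and TMM-scaled totals. The interaction was tested in a fit of the 4 groups, and the S3 and spleen contrasts in a fit of all 21 libraries. Library values were tested by exact permutation in scipy 1.17.1. Alternatives were DESeq2 1.42.0, limma-voom (limma 3.58.1), other scalings and filters, subsets of libraries and a replicate block; the fits without both MxCre LSK libraries, without globin and immunoglobulin genes and without the length trend were added after seeing the data. The test was checked on simulated data for the cell type comparison, where among 16839 genes it called 10 of 68 genes changed by a log2 fold of 1, 60 of 66 changed by 2 and 66 of 66 changed by 4. In the simulation all genes shared 1 dispersion, few genes changed, no library stood apart and LSK libraries did not split by genotype. The real libraries differ in each of these, so the recovery describes the simulated setting only. At these depths counting error is small beside the spread between libraries, except for genes with few counts. The genes named are the 10 largest rises and falls among abundant protein-coding genes that separate the cell types, the extremes and most abundant members of each list and further members by size of change, all sort marker, BCL-2, transcription factor, growth factor receptor and NADPH oxidase genes as far as space allowed (some genes are not reported here), Ptpn11, the 10 most abundant genes and the 5 extremes of the other contrasts. Members and lists were chosen with earlier results of these data known. No set test was run, since lists are described by counts and medians. RefSeq promoters (GRCm38.p6) were matched by symbol for 25 of the 30 granule genes.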

Additional observations from a re-analysis of the deposited data

Results flagged for a closer look

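In 25 of 274 groups of 4 libraries, 1 library stood apart from the rest by a distance that chance gives in about 1 of 20 groups, and 22 of these were CD11b+ MxCre replicate 1. That library was high (log2 CPM) for Cd5l (11.08, others at most 5.51), Il1b (12.07, at most 8.40), Ctsd (14.20, at most 10.65), Junb (14.18, at most 10.90), Pmaip1 (9.04, at most 6.27), Csf3r (11.75, at most 9.42), Cxcr2 (9.12, at most 7.79), C5ar1 (9.80, at most 8.17), Tlr2 (8.98, at most 6.77), Dusp6 (9.12, at most 8.0) and Igkc (13.78, at most 12.47). It was low for Hbb-bs (13.13, others at least 15.84), Gata1 (2.39, at least 6.83), Ly6c2 (7.84, at least 9.87), Ccr2 (5.59, at least 7.40), Spn (5.68, at least 7.57), Itga6 (1.76, at least 3.62), Bcl2 (2.91, at least 4.14), Bcl2l1 (7.47, at least 8.86) and Afap1l1 (-0.87, at least -0.05), and Mycn and Hlf had a count of 0 there (-5.34). The library was thus high in macrophage and inflammatory genes, low in erythroid genes, and had the lowest total count and the most genes at 0, and how these are related was not tested. The other 3 were S100a8 (13.79) in CD11b+ Ptpn11D61Y/+ replicate 2, Tert (-5.34) in CD11b+ MxCre replicate 2 and Bak1 (5.57) in LSK MxCre replicate 2.

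Of 131 genes given with their values, 17 had a CD11b+ to LSK difference that was called different between the control genotypes by the interaction test. The signed difference was higher in Ptpn11D61Y/+ libraries, in log2 units, for Mmp9 (7.82), Ly6g (7.80), Mmp8 (7.60), Ltf (7.45), Lcn2 (6.21), Retnlg (6.18), Lyz2 (3.50), Itgam (3.44) and Casp8 (2.58). For Casp8, lower in CD11b+ cells, this was a smaller gap. The signed difference was called higher there too for Scrg1 (8.95), Arhgap5 (9.93), Apol7e (9.85) and Tnip3 (7.67). These fitted values rest on a group with a count of 0 in both libraries, depend on how the fit treats such counts and are no measure of size. For Arhgap5, Apol7e and Tnip3, lower in CD11b+ cells, the gap was smaller in Ptpn11D61Y/+ libraries. The signed difference was lower there, with a wider gap, for Prss34 (-5.79), Mcpt8 (-4.89), Grb10 (-3.48) and Hoxa9 (-2.55). For the first 8 the MxCre LSK libraries were above the Ptpn11D61Y/+ LSK libraries. Ifnar2, named only for a change of sign between fits, was called as well (1.54, adjusted p = 0.0495).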

How the results depend on the processing

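The cell type difference (8829 genes) ranged from 6686 to 11581 when 1 library was left out. The count moved most with MxCre libraries only (4154), with a fold over 2 required (4731) and without both MxCre LSK libraries (3919). It was 10808 with DESeq2, 9550 with limma-voom, 8918 with RLE factors, 10409 with library size alone, 9363 without a filter and 8552 once the length trend was removed. Of 189 called genes that were followed one by one, 160 were called in every fit that left out 1 library. With library size alone the sign turned for Bak1 (-0.049), Fli1 (-0.73), Hif1a (-1.01), Ifnar1 (-0.77), Ifngr1 (-0.10), Rac1 (-0.26), Tnfrsf1a (-0.14), Lmnb1 (-0.014), Atp6v1a (-0.22) and Atp5c1 (-0.42). With Ptpn11D61Y/+ libraries only it turned for Gfi1 (0.45) and Ifnar2 (0.72, also 0.72 without both MxCre LSK libraries), and without the length trend for Runx1 (0.52) and Igf1r (0.016). The causes were not tested, and the turn with library size alone follows from the scaling, which moved the median of all genes.

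The cell type by genotype term (185 genes) gave 3849 with DESeq2, 372 with RLE factors, 563 with library size alone, 7 with all 21 libraries in the fit and 0 to 10985 when 1 library was left out, the highest without CD11b+ MxCre replicate 2, in fits where the lone library of a group is assumed to vary like the others. The contrast of cell type by disease (S3) called 0 genes by edgeR, 2 without a filter, 122 with DESeq2 and 0 to 57 when 1 library was left out (57 without CD11b+ MxCre replicate 2). The contrast of marrow against spleen CD11b+ cells called 1949 genes, 3634 with DESeq2, 179 with MxCre libraries only and 681 to 3236 when 1 library was left out (681 without CD11b+ Ptpn11D61Y/+ replicate 1, 3236 without CD11b+ MxCre replicate 1). The difference in genes detected (-4855) ran from -5738 to -3558 and that in the share of the 10 most abundant genes (12.6 percentage points) from 10.8 to 14.6 when 1 library was left out; leaving out an LSK library raised the two-sided exact permutation p, to 0.0857 and 0.0571.

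With the replicate number as a block the cell type difference had 6312 called genes, 6293 of them in the same direction as without it, and 0 in the interaction with genotype. The deviations of same-numbered libraries from their group means correlated at -0.0492 in MxCre and -0.213 in Ptpn11D61Y/+ mice. With 2 libraries per group the deviations mirror each other, so this check cannot show whether same-numbered libraries share an animal. The main fit has no block because the study's methods name none.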
